A study of Mus musculus with 12 samples.

Results

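A set of 10 genes was examined, of 33641 genes listed in each of the 12 samples, that encode the IRE1 and ATF6 sensors of endoplasmic reticulum (ER) stress and the machinery of ER-associated degradation. They were taken by symbol from the RNA sequencing of mouse ventricles and comprised Ern1, Xbp1, Atf6, Herpud1, Syvn1, Sel1l, Edem1, Derl1, Derl2 and Derl3. All 10 had a row in every sample. Levels are in TPM, the length-scaled transcript abundance that the authors deposited, and the 9 members whose mean reached 0.5 TPM were tested. Derl3 was below that level.

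When misfolded proteins collect in the ER, the kinase and nuclease IRE1 splices the Xbp1 messenger RNA into a form that encodes an active transcription factor, while ATF6 moves to the Golgi apparatus and is cleaved to release another. Both factors are known to switch on genes for ER-associated degradation, in which misfolded proteins are passed back through the ER membrane, tagged with ubiquitin and destroyed by the proteasome. In heart muscle the ER is largely specialised as the sarcoplasmic reticulum, where phospholamban (PLN) regulates calcium uptake. TPM values of a gene do not tell the spliced from the unspliced form of Xbp1, nor the cleaved from the whole ATF6 protein.

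The samples were 3 each of left ventricle (LV) and right ventricle (RV) from WT-PLN and from R14del-PLN mice, labelled C57BL/6J and 12 to 14 weeks old. Both genotypes carried a human PLN coding sequence knocked into the mouse Pln gene and had been bred to Sox2-Cre mice from chimeras of mixed 129/Sv-CP and C57Bl/6J background. R14del-PLN mice, labelled as knock-outs, lack arginine 14 of the encoded protein on 1 allele and carry human WT-PLN on the other, so that the control hearts were humanised too. The hearts were frozen in liquid nitrogen before RNA was taken, and only male mice were said to be used.

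Some samples stood apart. Both WT-PLN samples numbered replicate 1 had 4 genes of the Y chromosome at 0.0159 to 0.191 TPM, against 3.03 to 30.6 TPM in the other 10. Such low levels do not match the stated male sex, and no R14del-PLN sample had them. Sex may thus not be balanced between the genotypes, and its part in the results was not tested. Mitochondrially encoded genes took 37.3% of all TPM in LV R14del-PLN replicate 3 and 44.0 to 54.5% elsewhere. For RV R14del-PLN replicate 3 the data name a different sequencing run from that of the other 11 samples. Markers of atrial muscle summed to 1319 TPM in LV WT-PLN replicate 3 and 881 TPM in RV WT-PLN replicate 2, and to 45.9 to 527 TPM in the others. All 8 markers of ventricular muscle were present in every sample, and the Pln row stood at 1559 to 1963 TPM in all groups, which does not tell the genotypes apart. The labels do not say which samples share a mouse.

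Upstream DNA is shown for the member with the largest change, for the one next to it, and for those that hold a whole ER stress element, the promoter sequence through which ATF6 and XBP1 are known to act. RefSeq promoters (GRCm38.p6, 250 bases before to 50 after the start) were found for 8 of the 10 members, with 2 entries for Derl2, and for neither Atf6 nor Derl1. Both strands were searched for 3 motifs, namely the ER stress element (CCAAT and CCACG with 9 bases of any kind between them), the second ER stress element (ATTGG and CCACG with 1 base between them) and the unfolded protein response element TGACGTGG. Both stress elements thus hold the pentamer CCACG and, on one strand or the other, the CCAAT box. The 250 bases before the start are printed 5′ to 3′, with a matched element in capitals.
Herpud1, chr8:94386179-94386428, plus strand: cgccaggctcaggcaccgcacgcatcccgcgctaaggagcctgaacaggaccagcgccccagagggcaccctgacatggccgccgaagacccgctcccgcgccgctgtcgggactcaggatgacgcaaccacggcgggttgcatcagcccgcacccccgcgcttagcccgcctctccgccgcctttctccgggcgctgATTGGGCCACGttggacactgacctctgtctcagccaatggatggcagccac
Xbp1, chr11:5520391-5520640, plus strand: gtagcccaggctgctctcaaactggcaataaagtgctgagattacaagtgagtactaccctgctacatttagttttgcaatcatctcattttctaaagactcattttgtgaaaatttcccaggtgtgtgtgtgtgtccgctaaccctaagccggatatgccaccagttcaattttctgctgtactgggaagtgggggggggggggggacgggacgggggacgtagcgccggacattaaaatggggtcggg
Syvn1, chr19:6046326-6046575, plus strand: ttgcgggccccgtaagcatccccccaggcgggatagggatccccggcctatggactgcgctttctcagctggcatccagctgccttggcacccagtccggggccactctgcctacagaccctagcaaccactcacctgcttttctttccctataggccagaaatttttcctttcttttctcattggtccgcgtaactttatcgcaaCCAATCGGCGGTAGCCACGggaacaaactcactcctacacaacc
Derl3, chr10:75893148-75893397, plus strand: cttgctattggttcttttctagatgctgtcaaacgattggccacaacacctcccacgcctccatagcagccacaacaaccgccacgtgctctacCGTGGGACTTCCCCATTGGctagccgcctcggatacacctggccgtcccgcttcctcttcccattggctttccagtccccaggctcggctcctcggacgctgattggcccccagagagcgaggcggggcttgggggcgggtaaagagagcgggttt
Herpud1 holds the second ER stress element, with its first base 52 bases before the start, a motif found in 12 of 32851 promoters (0.0365%). Syvn1 holds the ER stress element 44 bases before its start, and Derl3 holds it on the minus strand 156 bases before its start. That motif was found in 39 promoters (0.119%). The unfolded protein response element, in 222 promoters (0.676%), was in none of the members' windows, and none of the 3 letter patterns was in the Xbp1 window. These are matches of letters and not measured binding.

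The question put to the data was whether the genotype or the ventricle was accompanied by a difference in these genes. A gene was called at an adjusted p of at most 0.05 with a fold change of at least 1.5, using limma on log2(TPM + 1) and Benjamini-Hochberg adjustment over all 12526 tested genes. Fold changes are on that scale throughout and understate those of low genes. In whole tissue, fewer cells of a type and less RNA per cell cannot be told apart.

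Herpud1 fell in the LV of R14del-PLN mice, and it was the only 1 of the 9 tested members called there or in any other comparison. Xbp1 had the next lowest fold changes in both ventricles, short of the call. The sensors Ern1 and Atf6 were at nearly the same level in both genotypes. Syvn1 and Derl1 were slightly lower in every R14del-PLN sample than in any WT-PLN sample of the same ventricle, without a call, while Sel1l, Edem1 and Derl2 overlapped between genotypes.

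**Figure D1:**
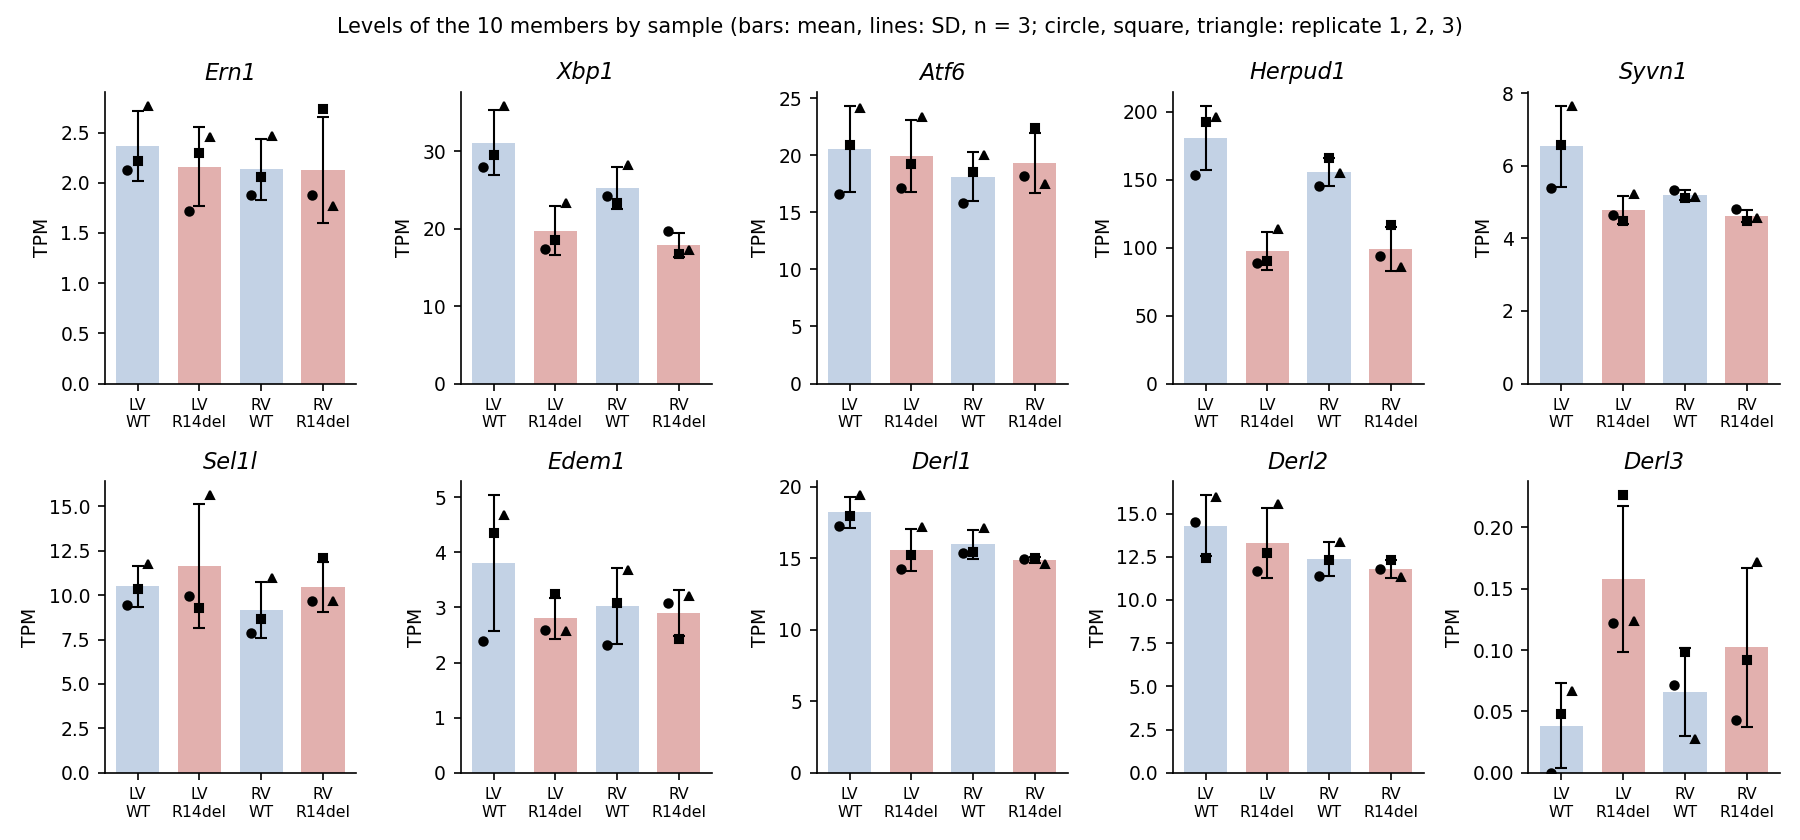
TPM (vertical axes, from 0) of the 10 members in each sample of the 4 groups. Bars give means, lines SD (n = 3) and point shapes the replicate number; the R14del-PLN points of Herpud1 lie at 85.9 to 117 TPM and the WT-PLN points at 145 to 196 TPM.

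Herpud1 (chr8:94386438-94395377, plus strand, GRCm38) encodes a membrane protein of the ER that helps to assemble the degradation complex. In the LV it was measured at 154, 192 and 196 TPM in WT-PLN and at 88.6, 90.3 and 114 TPM in R14del-PLN. In the RV the values were 145, 166 and 155 TPM in WT-PLN and 93.8, 117 and 85.9 TPM in R14del-PLN. All 6 R14del-PLN samples lay below all 6 WT-PLN samples, with no overlap in either ventricle.

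The LV means were 181 ± 23.5 TPM in WT-PLN and 97.6 ± 14.2 TPM in R14del-PLN (SD, n = 3), and Herpud1 was 1.84-fold lower (log2 fold change -0.88, SE 0.15, limma adjusted p = 0.0191). The RV means were 156 ± 10.2 and 98.9 ± 16.1 TPM (SD, n = 3). There the log2 fold change was -0.66 (95% interval -0.98 to -0.34, limma adjusted p = 0.111), which missed the call. The difference between the ventricles was not called either, since the interaction was 0.22 (95% interval -0.23 to 0.68, limma adjusted p = 1.0). Of all tested genes, 0.519% were called in the LV and 0.271% in the RV, and 0% for the interaction, where 1.01% had an unadjusted p under 0.05. Herpud1 had the 31st lowest p in the LV and the 77th lowest in the RV.

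The LV call on Herpud1 was lost when any 1 of 4 samples was left out, although the log2 fold change stayed between -0.83 and -0.82. Its adjusted p by limma was 0.117 without LV R14del-PLN replicate 1, 0.0974 without LV R14del-PLN replicate 2, 0.109 without LV WT-PLN replicate 2 and 0.102 without LV WT-PLN replicate 3. Leaving out both WT-PLN replicate 1 samples gave a log2 fold change of -0.99 and an adjusted p of 0.0119. In the RV, without the replicate 3 of R14del-PLN from the other run, the log2 fold change was -0.56 and the adjusted p 0.406. The RV value was called under upper quartile scaling (adjusted p = 0.00549) and without mitochondrially encoded genes (adjusted p = 0.0294). Herpud1 also stands on a list of ER genes that the study drew from these samples, so its call is not independent evidence of that list's direction.

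Markers of red cells moved with genotype beside Herpud1. Of 5 such markers, 3 were lower in all LV and 4 in all RV R14del-PLN samples than in all WT-PLN samples of the ventricle. Over all tested genes this held for 8.47% in the LV and 5.79% in the RV. None of the 5 markers was called by limma, and none was at 0 in any sample. Their summed level was 2087 to 2316 TPM in LV WT-PLN and 1093 to 2142 TPM in LV R14del-PLN, which overlap. In the RV it was 1461 to 1736 against 956 to 1368 TPM. Their part in the Herpud1 result was not tested. In the LV, 2 of 6 atrial muscle markers were also lower in all R14del-PLN samples, and 1 of 6 endothelial markers was higher. In the RV, 1 of 8 ventricular muscle markers was lower, while 1 of 6 endothelial and 1 of 6 smooth muscle and pericyte markers were higher. The summed levels of these lists overlapped between genotypes, and their part was not tested either. Markers of B and plasma cells, which are rich in XBP1, summed to only 2.54 to 5.81 TPM in any sample, of which Ms4a1 was at 0 in 1 RV WT-PLN sample, and the summed ranges overlapped between genotypes in both ventricles. Of these 6 markers, Ighm was higher in all RV R14del-PLN samples (2.26 to 3.51 TPM) than in all RV WT-PLN samples (1.25 to 2.08 TPM). Of the 12526 tested genes, 650 in the RV and 311 in the LV were higher in all R14del-PLN samples. The part of Ighm in the results was not tested.

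Xbp1 (chr11:5520659-5525893, plus strand) encodes the transcription factor made active by IRE1. In the LV it was measured at 27.9, 29.4 and 35.8 TPM in WT-PLN and at 17.3, 18.5 and 23.3 TPM in R14del-PLN. In the RV the values were 24.2, 23.3 and 28.3 TPM in WT-PLN and 19.7, 16.7 and 17.2 TPM in R14del-PLN. The genotypes did not overlap within a ventricle, although the highest LV R14del-PLN sample and the lowest RV WT-PLN sample were almost level.

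The LV log2 fold change of Xbp1 was -0.63 (SE 0.14, 95% interval -0.94 to -0.32) with a limma adjusted p of 0.0798, short of the call. In the RV it was -0.47 (95% interval -0.78 to -0.16) with a limma adjusted p of 0.352. The interaction was 0.16 (95% interval -0.28 to 0.60, limma adjusted p = 1.0). Xbp1 was called in the LV without LV R14del-PLN replicate 3, the sample with the low mitochondrial share (log2 fold change -0.75, adjusted p = 0.039), and without mitochondrially encoded genes (adjusted p = 0.013). It was also called with the replicate number as a block (adjusted p = 0.0393), although that number does not pair the genotypes. The red cell markers that moved with Herpud1 moved with Xbp1 too, and their part was not tested.

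**Figure D2:**
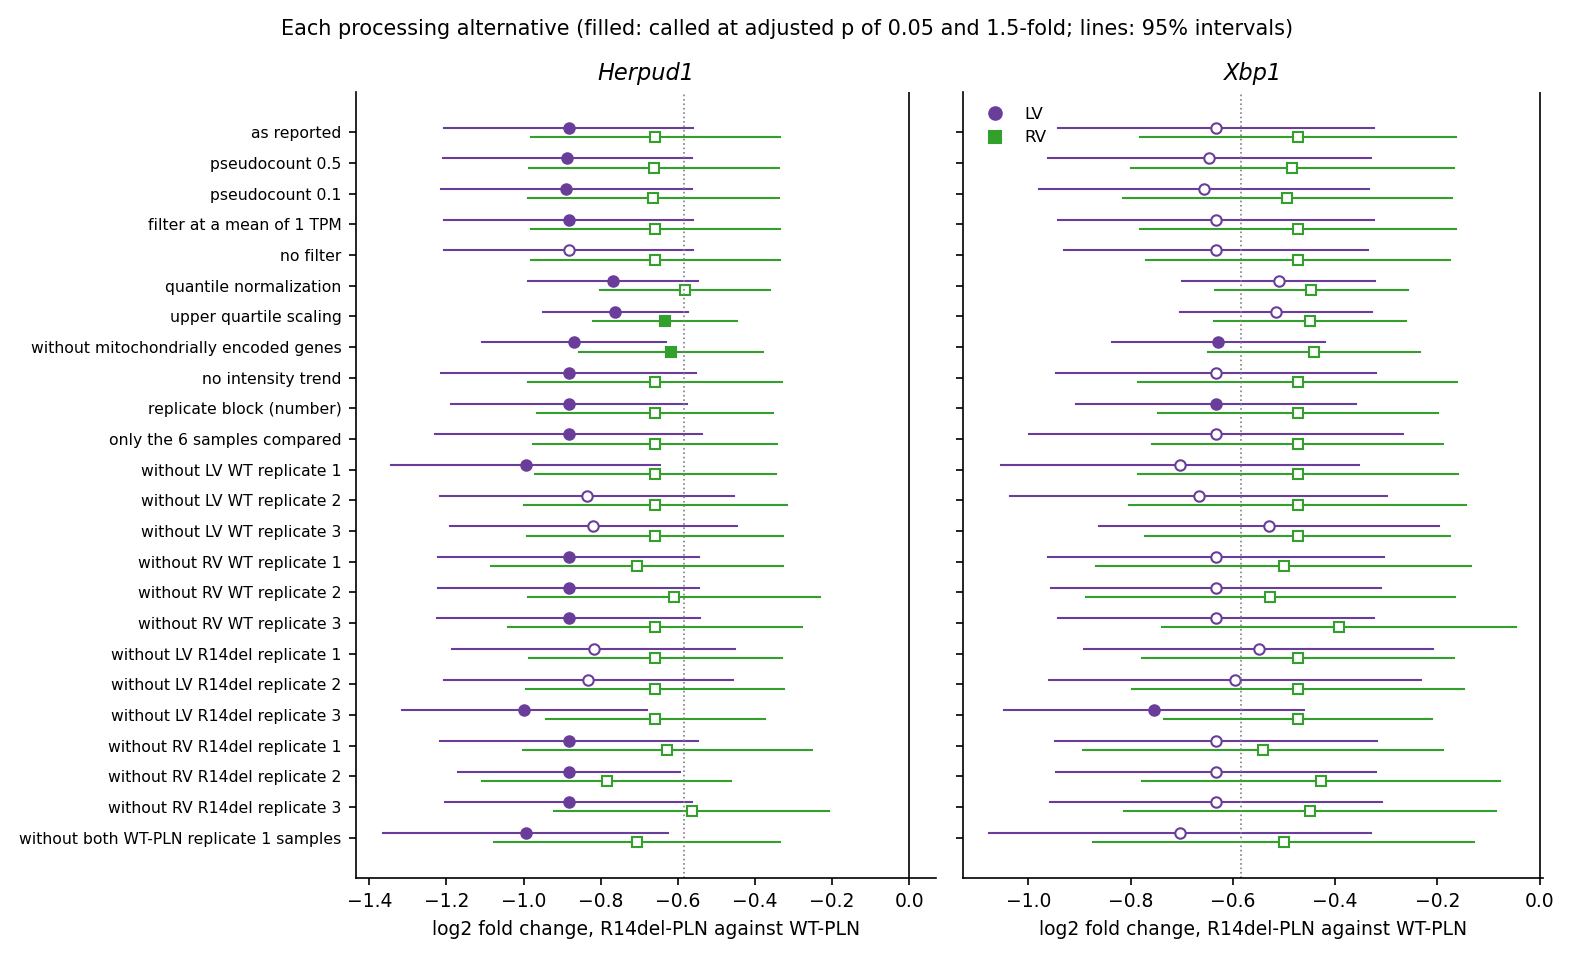
Log2 fold change of R14del-PLN against WT-PLN (horizontal axis) for Herpud1 and Xbp1 under each processing alternative (vertical axis), with 95% intervals. Filled points pass the call; all points lie below 0, and filled Herpud1 points in the LV turn open in 5 of 24 settings.

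Ern1 (chr11:106394650-106487852, minus strand) encodes IRE1 itself. It was measured in the LV at 2.12, 2.21 and 2.77 TPM in WT-PLN and 1.71, 2.30 and 2.46 TPM in R14del-PLN. In the RV the values were 1.88, 2.06 and 2.47 TPM and 1.88, 2.73 and 1.77 TPM. The genotypes overlapped in each ventricle. Their log2 fold change was -0.10 (95% interval -0.42 to 0.23) for the LV and -0.01 (-0.34 to 0.31) for the RV.

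Atf6 (chr1:170704674-170867771, minus strand) encodes the membrane-bound factor of the other branch. In the LV it was at 16.6, 20.9 and 24.1 TPM in WT-PLN and 17.1, 19.3 and 23.4 TPM in R14del-PLN, and in the RV at 15.8, 18.6 and 19.99 TPM and 18.2, 22.3 and 17.5 TPM. These samples overlapped throughout, with log2 fold changes of -0.04 (95% interval -0.39 to 0.31) in the LV and 0.09 (-0.26 to 0.44) in the RV. On the scale of log2(TPM + 1), the limma intervals of both sensors exclude a 1.5-fold difference in either direction in both ventricles. Ern1 was low, at a mean of 2.20 TPM, where that scale understates fold changes. A 1.5-fold fall of its TPM in the LV is therefore not excluded.

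Syvn1 and Sel1l encode the core of the main ligase complex, the ubiquitin ligase HRD1 and its adaptor. Syvn1 (chr19:6046576-6053712, plus strand) was at 5.40, 6.56 and 7.63 TPM in LV WT-PLN and 4.65, 4.47 and 5.22 TPM in LV R14del-PLN. Its RV values were 5.34, 5.10 and 5.12 TPM for WT-PLN and 4.81, 4.49 and 4.55 TPM for R14del-PLN. No R14del-PLN sample reached a WT-PLN sample of its ventricle, but the gap was under 0.3 TPM in both.

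The log2 fold change of Syvn1 was -0.37 (95% interval -0.64 to -0.10, limma adjusted p = 0.302) in the LV and -0.14 (-0.41 to 0.13, adjusted p = 1.0) in the RV. It overlaps Mrpl49 on the other strand, which was at a mean of 18.1 TPM. Whether the values were counted by strand is not stated. Mrpl49 itself had log2 fold changes of 0.06 in the LV and -0.0042 in the RV, with overlapping genotypes. Sel1l (chr12:91806043-91849157, minus strand) was at 9.45, 10.3 and 11.7 TPM in LV WT-PLN and 9.96, 9.29 and 15.6 TPM in LV R14del-PLN. In the RV the values were 7.86, 8.68 and 10.9 TPM in WT-PLN and 9.68, 12.1 and 9.66 TPM in R14del-PLN. Its log2 fold changes were 0.11 (95% interval -0.29 to 0.50) and 0.18 (-0.22 to 0.58), and the LV value was -0.11 without the highest sample, LV R14del-PLN replicate 3. The adaptor overlapped between genotypes where the ligase did not, and neither gene was called. Over all tested genes, 8.47% in the LV and 5.79% in the RV were lower in all R14del-PLN samples, as Syvn1 was. Ligase and adaptor were not compared with each other.

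Edem1 (chr6:108828641-108859356, plus strand) encodes a factor that marks misfolded glycoproteins for degradation by trimming their mannose. It was at 2.39, 4.35 and 4.67 TPM in LV WT-PLN and 2.60, 3.24 and 2.58 TPM in LV R14del-PLN. Its RV values were 2.32, 3.08 and 3.68 TPM in WT-PLN and 3.07, 2.42 and 3.21 TPM in R14del-PLN. The low LV WT-PLN value was that of replicate 1, and with it the genotypes overlapped. Its log2 fold change was -0.30 (95% interval -0.72 to 0.11) in the LV and -0.04 (-0.46 to 0.38) in the RV.

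The derlins form part of the channel through which proteins leave the ER. Derl1 (chr15:57869502-57892448, minus strand) was at 17.2, 18.0 and 19.4 TPM in LV WT-PLN and 14.3, 15.2 and 17.2 TPM in LV R14del-PLN. RV values were 15.3, 15.4 and 17.1 TPM in WT-PLN and 14.96, 15.01 and 14.6 TPM in R14del-PLN. The genotypes just failed to overlap in each ventricle, and the log2 fold changes were -0.22 (95% interval -0.45 to 0.02) and -0.09 (-0.33 to 0.14). A near-identical transcript, Gm35638, with 95.4% identity, could share reads with Derl1. It had no row under that symbol in the TPM values, so its level is not known.

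Derl2 (chr11:71007164-71019841, minus strand) was at 14.5, 12.4 and 15.95 TPM in LV WT-PLN and 11.7, 12.7 and 15.5 TPM in LV R14del-PLN. RV values were 11.4, 12.3 and 13.4 TPM in WT-PLN and 11.8, 12.3 and 11.3 TPM in R14del-PLN. Genotypes overlapped in each ventricle, and there were log2 fold changes of -0.10 (95% interval -0.39 to 0.19) and -0.06 (-0.35 to 0.23). It overlaps Mis12 on the other strand, at a mean of 2.90 TPM.

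Derl3 (chr10:75893413-75895941, plus strand), which is known mainly from secretory cells, was near the bottom of the scale. It was listed at 0 in LV WT-PLN replicate 1 and at 0.0482 and 0.0669 TPM in the other two, and at 0.122, 0.226 and 0.124 TPM in LV R14del-PLN. In the RV it was at 0.0711, 0.0983 and 0.0274 TPM in WT-PLN and 0.0431, 0.0920 and 0.172 TPM in R14del-PLN. All LV R14del-PLN samples were thus above the LV WT-PLN samples, while the RV groups overlapped. That LV order was also found for 311 of the 12526 tested genes, which do not include Derl3. In a fit of all 22948 genes above 0 the LV difference was not called (limma adjusted p = 0.407).

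**Figure D3:**
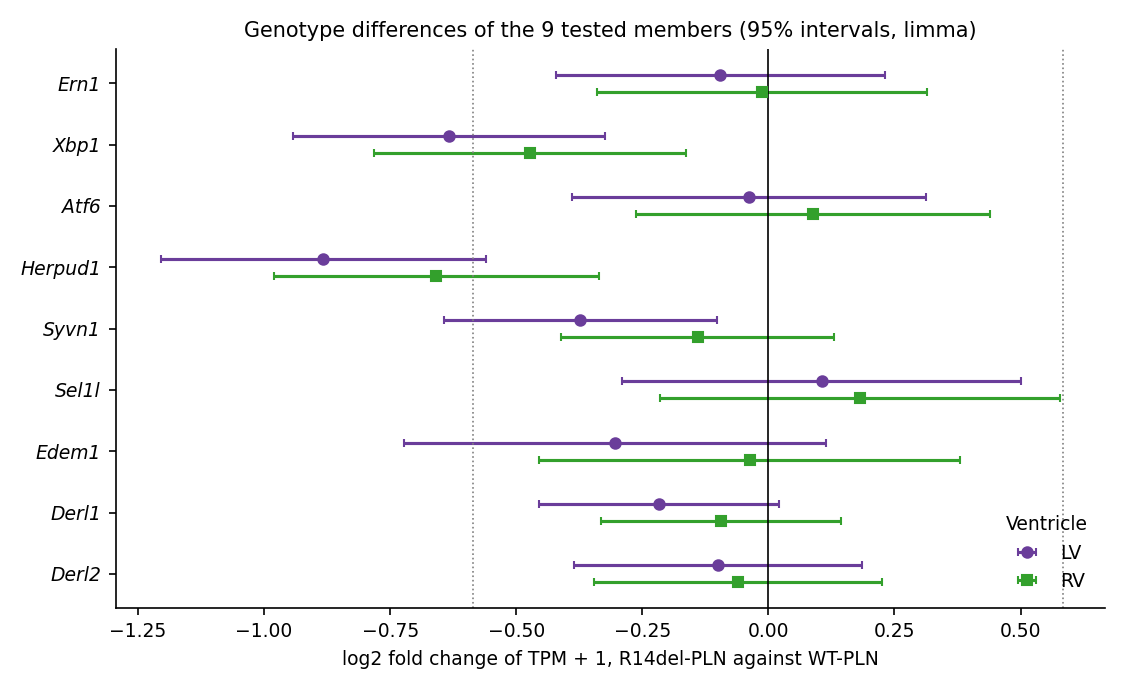
Log2 fold change of R14del-PLN against WT-PLN (horizontal axis) of the 9 tested members in the LV (circles) and RV (squares), with 95% intervals from limma. Dotted lines mark 1.5-fold; only Herpud1 and Xbp1 have intervals wholly below 0 in both ventricles.

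By level, which TPM puts on a scale per transcript length, Herpud1 led with a mean of 133 TPM over the 12 samples, above 96.4% of the tested genes. It was followed by Xbp1 at 23.5, Atf6 at 19.5, Derl1 at 16.1, Derl2 at 12.9 and Sel1l at 10.4 TPM. Syvn1 at 5.28, Edem1 at 3.13, Ern1 at 2.20 and Derl3 at 0.0910 TPM closed the order. Over the 12 samples each range overlapped that of its neighbour in this order, except at 3 steps. Herpud1 lay above all others, Derl3 lay below all others, and the lowest Sel1l value of 7.86 TPM just cleared the highest Syvn1 value of 7.63 TPM.

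Herpud1, Xbp1, Syvn1 and Derl1 were lower in all R14del-PLN than in all WT-PLN samples in both ventricles, which makes 4 of the 9 tested members. Over all tested genes this held for 8.47% in the LV, 5.79% in the RV and 2.38% in both. At an unadjusted p of 0.05, 3 members were lower in the LV and 2 in the RV, against 7.85% and 3.4% of all tested genes. Of the members, 8 had a fold change below 0 in the LV and 7 in the RV. Those below 0 numbered 5 in the LV and 7 in the RV under quantile normalization, 6 and 6 under upper quartile scaling, and 8 and 6 without mitochondrially encoded genes. Herpud1, Xbp1, Syvn1, Derl1 and Edem1 were below 0 in both ventricles in each of these. The median log2 fold change of the 9 members was -0.22 in the LV and -0.06 in the RV, against -0.09 and -0.0034 over all tested genes.

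Between the ventricles, no member was called in either genotype. In WT-PLN hearts, all 9 tested members had lower means in the RV, with log2 fold changes of RV against LV from -0.29 to -0.10, beside a median of -0.17 (0.0051 under quantile normalization and -0.0072 under upper quartile scaling) over all tested genes. Under those 2 scalings 6 of the 9 were below 0, with Derl1, Atf6 and Ern1 above it. Syvn1 was the only member that passed an unadjusted p of 0.05, against 13.8% of tested genes that were lower at that level. It was at a mean of 5.19 ± 0.131 TPM in the RV against 6.53 ± 1.12 TPM in the LV (SD, n = 3), with a log2 fold change of -0.27 (95% interval -0.54 to -0.0011, limma adjusted p = 0.344). Syvn1 and Derl1 were lower in all RV than in all LV WT-PLN samples, against 25.2% of all tested genes. For Derl1 the log2 fold change was -0.18 (95% interval -0.42 to 0.06), for Xbp1 -0.29 (-0.60 to 0.02) and for Herpud1 -0.21 (-0.53 to 0.11).

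None of the tested genes was called between the ventricles in either genotype (0%), while 14.5% in WT-PLN and 6.57% in R14del-PLN had an unadjusted p under 0.05. With the samples of 1 number and genotype as a block, a pairing that the data bear out for WT-PLN hearts alone, 12 genes were called in WT-PLN and 0 of them were members. Mitochondrially encoded genes took 44.0 to 47.3% of TPM in LV and 48.7 to 52.7% in RV WT-PLN. The summed endothelial markers were 140 to 180 TPM in LV and 104 to 119 TPM in RV WT-PLN, with 5 of 6 markers apart and none at 0. All 5 red cell markers were lower in the RV too, with sums of 1461 to 1736 against 2087 to 2316 TPM. Of all tested genes, 25.2% were lower in all RV samples. Markers of B and plasma cells summed to 2.54 to 3.11 TPM in RV and 3.25 to 5.81 TPM in LV WT-PLN. Their part in these differences was not tested. Without mitochondrially encoded genes, the median log2 fold change of the 9 members in WT-PLN was -0.07.

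In R14del-PLN hearts the members' log2 fold changes of RV against LV were from -0.15 to 0.04, with 7 of the 9 below 0 (3 under quantile normalization or upper quartile scaling, and 0 without mitochondrially encoded genes). No member was lower in all RV than in all LV samples, 0 of 9, against 8.72% of tested genes lower in all RV samples. Herpud1 was at nearly the same mean in both, 97.6 ± 14.2 TPM in the LV and 98.9 ± 16.1 TPM in the RV (SD, n = 3), with a log2 fold change of 0.02 (95% interval -0.31 to 0.34). For Xbp1 it was -0.13 (95% interval -0.44 to 0.18), for Syvn1 -0.04 (-0.31 to 0.23) and for Derl1 -0.06 (-0.30 to 0.18). The interactions of genotype and ventricle were above 0 for all 9 members, from 0.04 to 0.27, against a median of 0.08 over all tested genes. Only 6 of 9 were above 0 under quantile normalization and 7 of 9 under upper quartile scaling. The smallest unadjusted p was 0.213, for Syvn1.

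As context, 3 lists of related genes were set beside the members. No gene of the 3 lists was called by limma in either ventricle, against 0.519% and 0.271% of all tested genes. Of 19 partners of the IRE1 and ATF6 branches (paralogs, proteases, bound kinases and related factors), 18 were tested. At an unadjusted p of 0.05, 0 of 18 were lower in the LV, beside 7.85% of all tested genes, and 1 of 18 was higher in the RV, beside 2.82%. That gene was Bak1, a cell death effector known to bind IRE1. Its mean was 7.02 TPM in R14del-PLN against 4.18 TPM in WT-PLN (log2 fold change 0.62, 95% interval 0.11 to 1.13, limma adjusted p = 0.63), and in the LV its log2 fold change was -0.12. Creb3l2 and Creb3l1, membrane-bound factors related to ATF6, had log2 fold changes of -0.36 and -0.30 in the LV and -0.13 and -0.03 in the RV.

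Of 22 genes often listed as targets of spliced XBP1, all were tested, and 2 of 22 were lower in the LV at an unadjusted p of 0.05, beside 7.85% of all tested genes. These were Kdelr2, a receptor that returns proteins to the ER, with 8.97 against 11.7 TPM (log2 fold change -0.35, limma adjusted p = 0.389), and Dnajb9, a co-chaperone, with 12.8 against 15.8 TPM (log2 fold change -0.29, limma adjusted p = 0.451). In the RV none of the 22 did so, and Kdelr2 stood at -0.22 and Dnajb9 at 0.01. Dad1, a subunit of the oligosaccharyl transferase, had log2 fold changes of -0.28 in the LV and -0.09 in the RV. The list's median was -0.14 in the LV and -0.04 in the RV, beside -0.09 and -0.0034 for all tested genes.

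Of 57 further genes of ER-associated degradation, 55 were tested. In the LV 4 were lower at an unadjusted p of 0.05, against 7.85% of all tested genes, and in the RV 1 was higher, against 2.82%. Ubqln1, a shuttle to the proteasome, had the smallest p of the 4, with 11.5 TPM in R14del-PLN against 14.6 TPM in WT-PLN of the LV (log2 fold change -0.32, limma adjusted p = 0.379). Herpud2, the paralog of Herpud1, had 9.15 against 11.8 TPM (log2 fold change -0.33, limma adjusted p = 0.412), and -0.15 in the RV. The one higher in the RV was Dnajb14, a co-chaperone of the ER membrane, with a log2 fold change of 0.31 (limma adjusted p = 0.649). The list's median was -0.09 in the LV and -0.01 in the RV, beside -0.09 and -0.0034 for all tested genes.

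**Figure D4:**
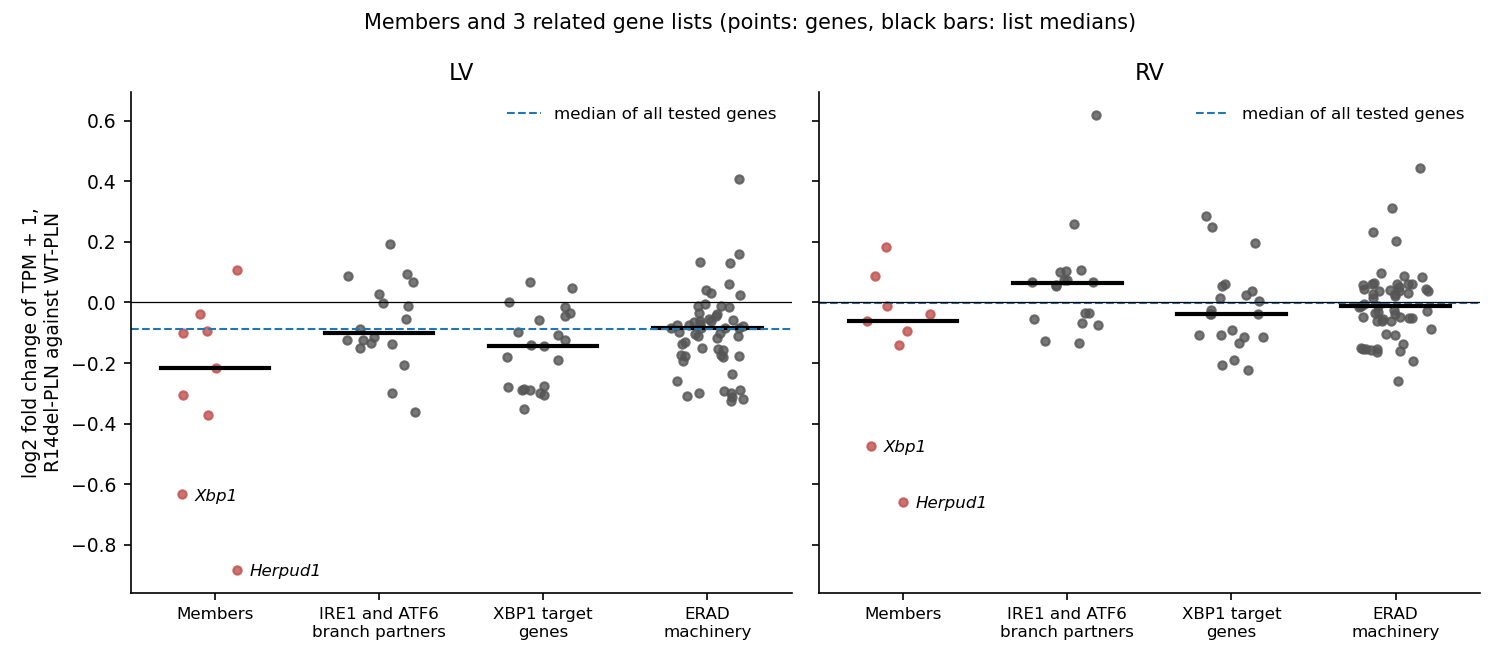
Log2 fold change of R14del-PLN against WT-PLN (vertical axis) for the tested genes of each list (points) in the LV and RV, with list medians (black bars) and the median of all tested genes (dashed). Herpud1 and Xbp1 lie below every gene of the other 3 lists in both ventricles, while the list medians lie between -0.22 and 0.06.

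Over the 12 samples, the genes whose log2(TPM + 1) was most like that of 4 members were named by Pearson's r, as a description with no test, since the samples share their 4 groups and a common TPM total. For Herpud1 these were Per1 (r = 0.980), Bcl2l1 (0.972) and Klf9 (0.971). For Xbp1 they were Acsf3 (0.976), Pkp2 (0.968) and Galnt11 (0.966). For Ern1 they were Parp8 (0.978), Tbcd (0.961) and Bdp1 (0.957), and for Atf6 they were Ankfy1 (0.976), Cdyl (0.969) and Sestd1 (0.968). None of these genes was shared between the 4 members.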

How the data were processed

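RNA was measured in 12 mouse ventricle samples from polyA stranded libraries. The authors deposited TPM values for each sample, which sum to 1000000 and keep no depth, so that no counting error or detection floor could be given. CLC Genomics Workbench and GRCm38 are named for mapping; which program, annotation and strand setting gave the TPM values is not given in the sources used here. Groups and replicate numbers came from the sample titles. Values were used as deposited.

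The 12526 genes whose mean reached 0.5 TPM, of 22948 above 0, were tested with limma 3.58.1 in R 4.3.3 on log2(TPM + 1), in 1 model of 4 group means with the trend on intensity (8 residual degrees of freedom, 5.15 prior ones). The Benjamini-Hochberg method was applied over all tested genes. Calls required an adjusted p no higher than 0.05 with a change of 1.5-fold or more, and an interaction at the adjusted p alone. The model was tested on simulated data. P-values set the difference of group means against the spread between samples, with limma drawing each gene's spread toward the trend over all genes. All 12 samples were treated as independent in that model.

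The members, lists, markers and alternatives were chosen with earlier results of these data known. All members were named, with the 3 genes of smallest genotype p from each related list and any called, and the 3 genes most like Ern1, Xbp1, Atf6 and Herpud1. Positions came from GENCODE M21, copies from BLAST 2.17.0 (at least 95% identity over 80% of the shorter transcript) and promoters from RefSeq. Python 3.11.15 with numpy 2.4.6, pandas 2.3.3 and matplotlib 3.10.9 served the other steps.

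As a check of pairing, deviations from group means were correlated between samples of one number. LV and RV of WT-PLN gave 0.321 to 0.658, against -0.457 to 0.000824 between different numbers, and the number was taken to pair them. LV and RV of R14del-PLN gave 0.0542 to 0.389, which overlaps the -0.396 to 0.160 between different numbers. The genotypes gave -0.0209 to 0.156 in the LV and 0.061 to 0.219 in the RV. No pairing was assumed for R14del-PLN or between genotypes. The ventricle and interaction intervals printed come from the fit without pairing, in WT-PLN too.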

Additional observations from a re-analysis of the deposited data

How the results depend on the processing

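TPM hold no depth, so a low value such as that of Derl3 has no counting error. The alternatives were counted for the genotype log2 fold changes of the 9 tested members. Ventricle and interaction fold changes were counted for Herpud1, Xbp1, Syvn1 and Derl1 only. Of the values so counted, 673 of 716 kept their direction and side of the threshold, 5 lost and 5 gained the call and 33 turned sign. All 5 lost calls were those of Herpud1 in the LV, in 5 of its 24 alternatives. A change of filter, trend or block, or of samples outside the comparison, left a fold change as it was. Its sign could not turn there, so the pooled count is no measure of how stable the Herpud1 call was. The genotype fold changes of Herpud1, Xbp1, Syvn1 and Derl1 kept their direction throughout. Their samples did not overlap between genotypes within a ventricle, so leaving out samples could not turn them. Only the changes of scaling could have done so. Causes were not tested, apart from the fewer samples or other gene sets that an alternative has by construction.

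The count of genes called was 65 in the LV and 34 in the RV, of which 81.5% and 73.5% were lower in R14del-PLN. It was 22 and 17 with no filter, 104 and 85 under quantile normalization (62.5% and 65.9% lower), 99 and 87 under upper quartile scaling (64.6% and 63.2% lower), and 231 and 88 without both WT-PLN replicate 1 samples. Without mitochondrially encoded genes it was 95 and 73 (76 and 42 of them lower). Leaving out single samples gave 19 to 153 genes in the LV and 14 to 48 in the RV, 0 to 4 between the ventricles of WT-PLN, 0 to 1 in R14del-PLN and 0 to 1 for the interaction (2 with no filter). Between the ventricles of WT-PLN, 1 gene was called with no filter and with the 6 samples alone, and 2 without mitochondrially encoded genes or without both replicate 1 samples. Of the members in the LV, 0 were called with no filter, 2 without mitochondrially encoded genes and 0 to 2 without single samples, and in the RV 1 under upper quartile scaling and 1 without mitochondrially encoded genes. Where the filter was dropped, Herpud1 in the LV had an adjusted p of 0.071, and over all alternatives it ranged from 0.00163 to 0.117.

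The replicate number as a block gave 119 genes in the LV, 62 in the RV and 2 members in the LV. The block of genotype and number, which pairs the ventricles, gave 12 genes in WT-PLN. No other call on a member changed with a block.

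Among the counted fold changes, and the genotype fold changes of the named list genes, those that turned sign were all near 0. Ventricle and interaction fold changes of the other members are not listed here. Under quantile normalization, Ern1 (0.0006), Atf6 (0.0706) and Derl2 (0.0132) turned in the LV, as did Derl1 (0.0115) between the ventricles of WT-PLN and Syvn1 (0.0377) and Derl1 (0.031) of R14del-PLN. Under upper quartile scaling, Atf6 (0.0776) and Derl2 (0.0121) turned in the LV, Ern1 (0.0031) in the RV, and between the ventricles Derl1 (0.0038) in WT-PLN and Syvn1 (0.0423) and Derl1 (0.0348) in R14del-PLN. Without mitochondrially encoded genes, Ern1 (0.0179) turned in the RV, and between the ventricles of R14del-PLN Xbp1 (0.0295), Syvn1 (0.1047) and Derl1 (0.0987). In that last comparison all 9 tested members were above 0. Without both WT-PLN replicate 1 samples, Atf6 (-0.0021) and Dnajb9 (-0.0056) turned in the RV. Leaving out single samples gave -0.1649 to 0.0104 for Ern1, -0.1751 to 0.0808 for Atf6, -0.1104 to 0.236 for Sel1l and -0.4105 to 0.063 for Bak1 in the LV. In the RV it gave -0.1477 to 0.0686 for Ern1, -0.0149 to 0.1592 for Atf6, -0.169 to 0.0788 for Edem1, -0.0742 to 0.0338 for Creb3l1 and -0.0741 to 0.0921 for Dnajb9. Between the ventricles of R14del-PLN it gave -0.1108 to 0.1309 for Herpud1, -0.0781 to 0.0138 for Syvn1 and -0.1148 to 0.0102 for Derl1.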
